A study of Mus musculus with 13 samples.

Results

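The genes described here are 10 Sox transcription factors, Sox1, Sox2, Sox3, Sox4, Sox7, Sox9, Sox10, Sox11, Sox17 and Sox18, taken by symbol from the 27998 genes of droplet single-cell count matrices of developing mice. They were read in every barcode with at least 2000 unique molecular identifiers (UMIs, each a counted RNA molecule). All animals were wild-type C57Bl/6J. Embryos at E8.5 and E10.5 were taken without head and limbs, and the heart alone was taken at the older stages, E12.5, E14.5, E16.5 and 3 days after birth (P3). Each stage from E10.5 to E16.5 has 2 libraries. E8.5 has 1 library analysed here and P3 has 1 matrix that pools 2 wells, so values of these stages are given without a test.

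Sox proteins bind DNA through a shared HMG domain and are grouped by sequence. SoxB1 factors (Sox1, Sox2, Sox3) maintain neural progenitors, and SoxC factors (Sox4, Sox11) act in newly formed neurons and in many embryonic tissues, the heart among them. SoxE factors (Sox9, Sox10) act in cartilage, heart valve mesenchyme and the neural crest, and SoxF factors (Sox7, Sox17, Sox18) act in endothelium.

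Barcodes were sorted into classes by marker UMIs. Endothelial barcodes carried Cdh5, an adhesion protein of endothelial junctions, with either Npr3, which marks endocardium, or Fabp4, which marks coronary endothelium. Mesenchyme was taken by Col1a1 and cardiomyocytes by Tnnt2. In embryos, further gates took Elavl3 (neurons), Epcam (epithelium), Meox1 (somitic mesoderm) and Hes5 or Pax6 (factors of neural progenitors, called the progenitor gate here). In embryos and hearts alike, a last gate took a set of neural crest markers that includes Foxd3 and Erbb3, of which a barcode had to carry at least 2, and in each heart library it held 1 to 10 barcodes. A barcode that passed more than 1 gate entered no class, among them the 14 to 39 barcodes of each heart library that passed both the Tnnt2 and the neural crest gate. In embryos the Col1a1 gate left out barcodes that passed the Meox1 gate. Barcodes rich in both genes thus stayed in the Meox1 class unless they passed a further gate. All levels below are in CPM, the UMIs of a gene divided by all UMIs of its class in that library and scaled to 1e+06, with replicates 1 and 2 in that order, and all differences are log2 fold changes ± SE from edgeR on the UMI sums of each library and class. In such sums, fewer cells with a gene and less RNA per cell cannot be told apart. Where a difference is against a mean of classes, it is the mean of their log levels. The differences also use scaling factors between the sums (TMM), which the levels do not. A difference can thus depart from the ratio of the levels printed beside it.

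The libraries held 4928 to 14675 barcodes with a median of 10268 to 24516 UMIs. The gates were checked with other markers. Summed Pecam1, Kdr, Egfl7, Cldn5 and Tie1 stood at 924 to 1834 CPM in the heart Npr3 gate and 1162 to 3045 in the Fabp4 gate, against 12.3 to 25.6 in the Tnnt2 gate. Cardiomyocyte markers (Actc1, Myh6, Myh7, Ttn and Actn2) stood at 17407 to 21535 in the Tnnt2 gate, and also at 313 to 448 in the Npr3 gate and 224 to 796 in the Fabp4 gate. Endocardial markers (Nfatc1, Cytl1 and Plxnd1) overlapped between the endothelial gates, at 234 to 589.6 in the Npr3 gate and 179 to 286 in the Fabp4 gate. Vascular markers (Cd36, Aplnr, Rgcc and Gpihbp1) did not, at 7.56 to 63.1 and 128 to 3532. Mesenchyme markers (Col3a1, Postn, Lum, Dcn and Pdgfra) stood at 209.8 to 688 in the Npr3 gate and 16.1 to 253 in the Fabp4 gate, against 1554 to 12264 in the Col1a1 gate.

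In embryos, neuron markers (Tubb3, Stmn2, Dcx and Nhlh1) stood at 1729 to 2190 in the Elavl3 gate and 40.9 to 59.8 in the progenitor gate. Markers of neural progenitors (Nes, Fabp7, Zic1 and Vim) did not single out the progenitor gate. They stood there at 231 to 858, at 449 to 736 in the Elavl3 gate, at 467 to 772 in the Col1a1 gate and at 1092 to 1269 in the Npr3 gate. The Col1a1 gate of embryos carried epithelial markers (Cdh1, Krt8, Krt18 and Cldn6) at 586 to 1041, close to the 730.5 to 1024 of the Epcam gate. The part of these other-cell markers in the results was not tested.

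The genes lie on 10 chromosomes of GRCm38. SoxB1 genes are Sox1 at chr8:12395295-12400126, Sox2 at chr3:34650405-34652461 and Sox3 at chrX:60891366-60893430, and SoxC genes are Sox4 at chr13:28948919-28953713 and Sox11 at chr12:27334264-27342574. SoxE genes are Sox9 at chr11:112782224-112787760 and Sox10 at chr15:79154908-79165240, and SoxF genes are Sox7 at chr14:63943673-63950732, Sox17 at chr1:4490931-4497354 and Sox18 at chr2:181669836-181671640. Sox2 lies inside the longer transcript Sox2ot on the same strand, and Sox1 overlaps Sox1ot and Gm25239 on the same strand. Reads of such same-strand transcripts may be counted in these genes. Sox4 overlaps Gm26735 and Sox17 overlaps Gm37587, both on the opposite strand.

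The promoter windows of the 4 members that form the neural pattern at E10.5 are shown, Sox1 and Sox2 for the Hes5 or Pax6 gate and Sox4 and Sox11 for the Elavl3 gate. They come from RefSeq (GRCm38.p6) and run 5′ to 3′ on the gene's strand, from 250 bases before to 50 bases after the start that RefSeq gives. That start differs from the gene coordinates above. The Sox2 and Sox11 windows lie wholly upstream of the genes as listed there, and the Sox1 window lies mostly inside its gene. Capitals mark GGGCGG (a GC box) and CCAAT on either strand, and no base lies in both. No window was matched for Sox3, Sox7, Sox9, Sox10, Sox17 or Sox18.
Sox1, chr8:12395269-12395568, plus strand: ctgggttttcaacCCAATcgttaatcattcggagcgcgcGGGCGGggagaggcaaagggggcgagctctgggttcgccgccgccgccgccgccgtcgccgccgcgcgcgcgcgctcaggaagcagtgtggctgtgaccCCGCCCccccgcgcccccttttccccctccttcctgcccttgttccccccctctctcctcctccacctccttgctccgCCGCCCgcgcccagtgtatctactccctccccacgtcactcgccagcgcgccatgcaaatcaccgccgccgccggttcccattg
Sox2, chr3:34649745-34650044, plus strand: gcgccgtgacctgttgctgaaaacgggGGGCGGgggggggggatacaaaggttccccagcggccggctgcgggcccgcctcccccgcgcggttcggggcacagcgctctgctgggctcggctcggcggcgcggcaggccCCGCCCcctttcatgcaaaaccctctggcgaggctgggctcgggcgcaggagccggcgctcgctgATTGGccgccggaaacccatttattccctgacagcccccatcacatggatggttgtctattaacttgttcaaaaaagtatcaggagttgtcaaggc
Sox4, chr13:28953650-28953949, minus strand: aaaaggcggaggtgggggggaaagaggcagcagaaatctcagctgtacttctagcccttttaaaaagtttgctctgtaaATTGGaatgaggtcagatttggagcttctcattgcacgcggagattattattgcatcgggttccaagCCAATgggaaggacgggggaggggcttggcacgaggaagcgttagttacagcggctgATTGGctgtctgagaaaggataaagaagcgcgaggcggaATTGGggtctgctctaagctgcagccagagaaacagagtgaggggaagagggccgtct
Sox11, chr12:27342669-27342968, minus strand: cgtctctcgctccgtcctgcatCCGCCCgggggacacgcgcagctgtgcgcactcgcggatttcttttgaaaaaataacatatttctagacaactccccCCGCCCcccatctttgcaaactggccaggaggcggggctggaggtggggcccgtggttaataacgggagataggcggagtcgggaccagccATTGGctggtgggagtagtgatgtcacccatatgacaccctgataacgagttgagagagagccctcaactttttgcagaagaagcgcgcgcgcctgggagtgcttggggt

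GGGCGG was found 3 times in the Sox1 window, 2 times in Sox2, 2 times in Sox11 and 0 times in Sox4, and 35.7% of 32851 windows of this length hold it. CCAAT was found 4 times in Sox4 and 1 time in each of the others, and 37.4% of windows hold it. GC content was 70.7% for Sox1, 66.3% for Sox2, 58.7% for Sox11 and 52% for Sox4, against a median of 52.7% over all windows. Neither TATAAA nor ACAAT, 1 form of the core of the motif that Sox proteins bind, occurred in these 4 windows on either strand. They are held by 13.6% and 31.0% of all windows. Other forms of the Sox core were not searched, so the windows may hold Sox sites of another form.

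In hearts the SoxF genes were higher in endothelium than in the Col1a1 and Tnnt2 gates, and Sox17 and Sox18 differed between the endocardial and coronary gates. Sox17, a factor of arterial and endodermal cells, was high in the coronary (Fabp4) gate and low in the endocardial (Npr3) gate of every heart. In the Fabp4 gate it stood at 39.6 and 60.5 at E12.5, then 73.1 and 56.4 at E14.5 and lastly 114 and 123 by E16.5. In the Npr3 gate it stood at 4.99 and 5.60, then 3.20 and 2.67, then 1.33 and 0.585. The lowest coronary library was above the highest endocardial library at each stage. At P3 Sox17 was 170.2 in the Fabp4 gate (188 in well 1 and 155 in well 2) and 2.18 in the Npr3 gate (0 in well 1 and 6.66 in well 2).

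Sox17 differed between the Fabp4 and Npr3 gates by 3.16 ± 0.29 (adjusted p = 6.2e-11) at E12.5, then 4.59 ± 0.28 (adjusted p = 3.18e-16) at E14.5 and lastly 7.04 ± 0.35 (adjusted p = 8.05e-19) by E16.5. From E12.5 to E16.5 it fell in the Npr3 gate (-2.58 ± 0.62, adjusted p = 0.00114) and rose in the Fabp4 gate (1.31 ± 0.21, adjusted p = 9.1e-06). The interaction of gate and stage, a test chosen after the levels were seen, was 3.88 ± 0.61 (adjusted p = 3.67e-05), against a median of 0.30 over all genes. In E10.5 embryos the Npr3 gate still held Sox17 at 62.9 and 57.6, and at E8.5 at 46.2. These embryos hold endothelium of the whole trunk and not of the heart alone, so the step to E12.5 was not tested.

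The share of all Sox17 molecules that lay in the Fabp4 gate was 15.1% and 13.2% at E12.5, then 70.4% and 67.6% at E14.5 and lastly 77.5% and 80.3% by E16.5. At E12.5 47.4% and 44.4% lay in barcodes that passed no gate, and at E16.5 3.21% and 2.05% did. These barcodes differed between the stages, with a median mitochondrial share of 2.62% and 2.61% and 15279 and 14194 UMIs at E12.5 and of 85.7% and 86.0% and 4196 and 3573.5 UMIs at E16.5, and the part of this sign of RNA quality was not tested. The Fabp4 gate held 24 and 23 barcodes at E12.5 and 180 and 155 at E16.5, so the share follows the size of the gate as well as its level. Barcodes with Cdh5 and both Npr3 and Fabp4, which entered neither class, held Sox17 at 25.7 and 22.8 at E12.5, then 49.4 and 41.2 at E14.5 and lastly 42.5 and 22.6 by E16.5, between the gates.

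**Figure D1:**
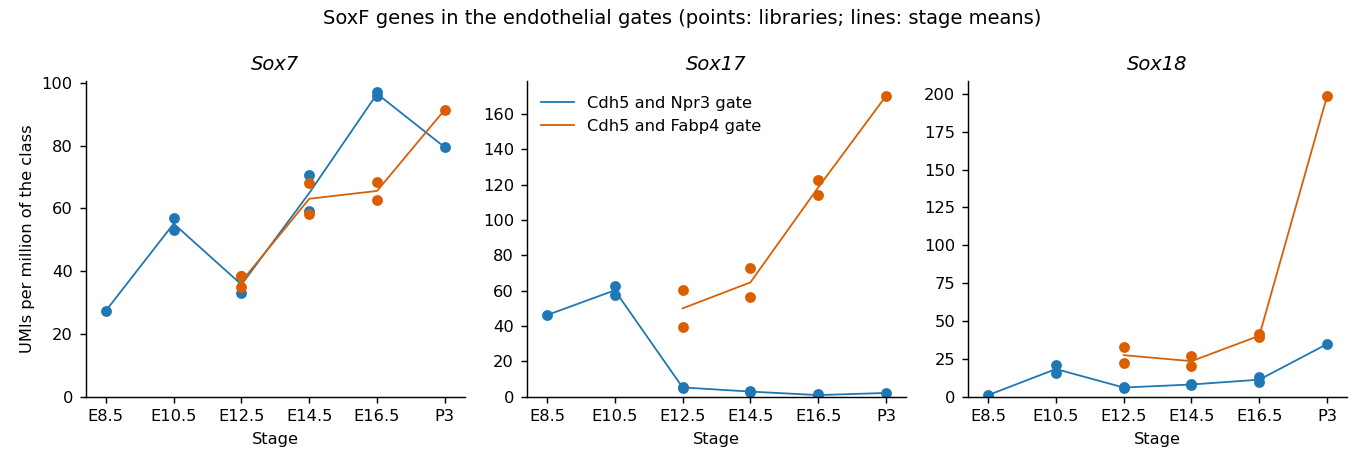
CPM within the class (y axis) by stage (x axis) for Sox7, Sox17 and Sox18 in the Npr3 and Fabp4 endothelial gates, with 1 point per library and lines through stage means. E8.5 and E10.5 are embryos and the later stages hearts. Sox17 in the Fabp4 gate rises from 39.6 and 60.5 at E12.5 to 170 at P3 while the heart Npr3 gate stays at 5.60 or lower.

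Sox18, a factor of vascular and lymphatic development, lay on the same side of the gates. It stood at 32.8 and 22.1 in the Fabp4 gate at E12.5, then 20.4 and 26.6 at E14.5 and lastly 41.4 and 39.2 by E16.5. In the Npr3 gate it stood at 5.92 and 6.32, 7.74 and 8.47 and 9.75 and 12.9. The gates did not overlap at any of the 3 stages, and the differences were 2.16 ± 0.33 (adjusted p = 4.01e-06), 1.70 ± 0.28 (adjusted p = 5.72e-06) and 2.04 ± 0.26 (adjusted p = 8.64e-08). Sox18 did not pass the test between E12.5 and E16.5 in either gate (0.67 ± 0.30, adjusted p = 0.0881 in the Npr3 gate and 0.56 ± 0.28, adjusted p = 0.178 in the Fabp4 gate). The Npr3-gate libraries of the 2 stages did not overlap, and the rise there was called with library totals (0.86, adjusted p = 0.0261), with DESeq2 (0.74, adjusted p = 0.021) and with barcodes of more than 1 gate kept (0.78, adjusted p = 0.018). At P3 it stood at 199 in the Fabp4 gate, with 129.9 in well 1 and 256 in well 2, and at 34.8 in the Npr3 gate, with 27.5 in well 1 and 49.9 in well 2.

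Sox7, the remaining SoxF gene, was present in both gates. At E12.5 it stood at 33.0 and 38.5 in the Npr3 gate and 35.1 and 38.3 in the Fabp4 gate, and the libraries overlapped (-0.01 ± 0.22, adjusted p = 1). At E14.5 they overlapped again, at 70.5 and 59.3 and 58.1 and 68.0 (0.09 ± 0.13, adjusted p = 0.65). At E16.5 Sox7 was higher in the Npr3 gate, at 97.1 and 95.9 against 62.6 and 68.5 (-0.38 ± 0.13, adjusted p = 0.0252), a call lost without either E16.5 library (-0.28, adjusted p = 0.384, and -0.42, adjusted p = 0.0934). Sox7 rose from E12.5 to E16.5 in the Npr3 gate, by 1.24 ± 0.12 (adjusted p = 4.4e-10), and in the Fabp4 gate, by 0.87 ± 0.22 (adjusted p = 0.00294). The rise in the Fabp4 gate was not called without E12.5 replicate 1 (0.79, adjusted p = 0.0977). At P3 Sox7 was 79.4 in the Npr3 gate (42.0 in well 1 and 156 in well 2) and 91.4 in the Fabp4 gate (55.1 in well 1 and 122 in well 2), and the order of the gates turned between the wells.

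How often Sox7 and Sox17 were read in the same barcode differed with the gate and stage. In the E10.5 Npr3 gate, 52 of 79 and 57 of 86 barcodes with Sox7 also held Sox17. In the Npr3 gate of E12.5 hearts the counts were 19 of 285 and 32 of 362, and in the Fabp4 gate of E16.5 hearts they were 73 of 97 and 62 of 87. A barcode without a UMI may still express the gene, so these counts follow the level and depth.

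Between the Fabp4 and Npr3 gates, 4 of 10 members were called at E12.5, where 19.4% of all genes were, 3 of 10 at E14.5 (36.6%) and 6 of 10 at E16.5 (32.5%). Sox4 was higher in the Npr3 gate at all 3 stages, at 285 and 334 against 137 and 153 at E16.5, and the differences were -0.81 ± 0.10, -1.09 ± 0.08 and -0.91 ± 0.09. Sox11 was lower in the Fabp4 gate at E12.5, at 62.2 and 48.7 against 83.0 and 77.1 (-0.55 ± 0.17, adjusted p = 0.0187), and higher at E16.5, at 82.6 and 67.3 against 64.3 and 57.9 (0.49 ± 0.14, adjusted p = 0.00581). The Sox11 call was lost at E12.5 without either E12.5 library (-0.70, adjusted p = 0.122, and -0.49, adjusted p = 0.209) and at E16.5 without E16.5 replicate 1 (0.42, adjusted p = 0.18), and further at E12.5 with RLE size factors (-0.45, adjusted p = 0.0576) and at E16.5 with library totals (0.30, adjusted p = 0.106). The interaction of Sox11 was 1.03 ± 0.22 (adjusted p = 0.00149). Sox9 was called higher in the Fabp4 gate at E16.5 at 7.23 and 0.783 against 0.886 and 0, and 26 UMIs in 1.11% of the barcodes of replicate 1 made that call, which was lost without that library (6.50, adjusted p = 0.39, where the Npr3 gate had 0 UMIs) and with the top 5% of UMIs left out (0.74, adjusted p = 0.813). In the interaction 3 of 10 members were called, and 8.62% of all genes.

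Of 8 genes known to act with or downstream of SoxF factors, 6 were called between these gates in E12.5 hearts (against 19.4% of all genes), 6 in E14.5 hearts (36.6%) and 7 in E16.5 hearts (32.5%). At each stage 4 were higher in the Fabp4 gate (Cldn5, Dll4, Flt4 and Robo4), while Mmrn2 and Notch1 were lower, joined by Vcam1 at E16.5. Cldn5, a tight junction protein, stood at 550.4 and 510.2 in the Fabp4 gate at E16.5 and at 1.77 and 1.17 in the Npr3 gate (8.63 ± 0.26). Mmrn2, an extracellular matrix protein of endothelium, stood at 115 and 134 and 413 and 409 (-1.55 ± 0.11), and the receptor Notch1 at 110.4 and 107 and 218 and 190.0 (-0.73 ± 0.11). Efnb2, an arterial ephrin, stood at 75.9 and 74.8 and 75.8 and 74.8 and did not pass the test. The median difference over the list was 0.61, 0.74 and 0.65 at the 3 stages, against -0.23, 0 and 0 over all genes. Of the Sox genes that are not members, Sox13 was higher and Sox5 and Sox12 were lower in the Fabp4 gate at E14.5 and E16.5.

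Within the Fabp4 gate, barcodes with Gja4 or Gja5, connexins of arteries, and neither Nr2f2 nor Aplnr were set against the reverse. Nr2f2 marks veins, while Aplnr is also among the vascular markers that checked the whole gate. The class called venous here thus need not be veins alone, and it held 99 and 83 barcodes at E16.5. Sox7 was higher in arterial barcodes, at 117 and 115 against 40.9 and 45.4 at E14.5 (1.40 ± 0.22, adjusted p = 5.9e-05) and at 122 and 121 against 48.1 and 52.1 at E16.5 (1.32 ± 0.20, adjusted p = 1.06e-05). The E14.5 call was at 1.28, adjusted p = 0.052 without E14.5 replicate 1. Sox17 was higher too, at 125 and 92.5 against 56.7 and 44.7 (1.10 ± 0.28, adjusted p = 0.0111) and at 202 and 205 against 91.6 and 111 (1.05 ± 0.21, adjusted p = 0.000572). The Sox17 call was lost without E14.5 replicate 1 (0.99, adjusted p = 0.361), E14.5 replicate 2 (1.11, adjusted p = 0.0831) or, at E16.5, replicate 1 (0.94, adjusted p = 0.1). The libraries of both genes did not overlap at either stage. Sox18 did not pass the test, at 0.37 ± 0.45 and 0.40 ± 0.33.

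Sox11 and Sox4 were also higher in arterial barcodes at E16.5. Sox11 stood at 176 and 105 against 54.7 and 55.9 (1.43 ± 0.20, adjusted p = 2.61e-06), and the call was lost without replicate 1 (0.96, adjusted p = 0.0825). At E14.5 Sox11 stood the other way, at 40.2 and 63.8 against 81.7 and 79.7, without passing the test (-0.73 ± 0.27, adjusted p = 0.112), which it did with no filter on low counts (-0.82, adjusted p = 0.0382). Sox4 stood at 163 and 216 against 122 and 122 at E16.5 (0.64 ± 0.15, adjusted p = 0.00441), and the call was lost without replicate 2 (0.40, adjusted p = 0.359) and without the 5% of barcodes with most UMIs (0.25, adjusted p = 0.566). In all, 2 of 8 members tested were called at E14.5 (6.28% of genes) and 4 of 8 at E16.5 (9.63%). Of the SoxF list, Mmrn2, Notch1, Efnb2 and Dll4 were higher in arterial barcodes at both stages, and Cldn5, at 567 and 349 against 581 and 581 at E16.5, did not pass the test. For genes of arteries on this list, such as Efnb2, the choice of barcodes by arterial connexins partly fixes the direction. The arterial class held 25 and 23 barcodes at E14.5 and 34 and 32 barcodes at E16.5, while 3 and 4 at E12.5 were too few for a test. At P3 the 22 arterial and 176 venous barcodes held Sox7 at 62.2 and 94.0, and Sox17 at 309 and 149.

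Against the Col1a1 and Tnnt2 gates, the endothelial gates called 7 of 10 members at E12.5 (47.6% of genes), 6 of 10 at E14.5 (58.2%) and 6 of 10 at E16.5 (57.1%). Both sides are means of the log levels of 2 gates. A called gene can thus stand near, or between, its levels in the gates it is set against. Sox7 was higher by 6.74 ± 0.28, 7.40 ± 0.17 and 6.87 ± 0.15, Sox17 by 6.28 ± 0.30, 6.55 ± 0.51 and 5.39 ± 0.88, and Sox18 by 6.53 ± 0.35, 7.58 ± 0.39 and 7.66 ± 0.37. In the Tnnt2 gate Sox7 stood at 0.279 and 0.402 at E12.5, and in erythroid barcodes, which should lack it, at 0.214 and 0.0873. Sox2 at E12.5 and Sox3 at E16.5 were called lower in endothelium, where both had 0 UMIs, and each call was lost without either library of its stage, that of Sox2 also with doubled gate thresholds (-5.24, adjusted p = 0.0957). Sox9 was lower in endothelium at all 3 stages (-2.92 ± 0.23, -4.23 ± 0.26 and -3.14 ± 0.38), and Sox11 was higher at E14.5 (0.45 ± 0.08) and E16.5 (1.06 ± 0.09). At E12.5 and E16.5 the Sox9 levels of the Npr3 and Tnnt2 gates overlapped, while the Col1a1 gate stood far above both, as given below. Sox3 was lower at E12.5 (-3.28 ± 0.63), a call lost with doubled gate thresholds (-1.12, adjusted p = 0.206) and with barcodes of more than 1 gate kept (-0.92, adjusted p = 0.093). Of the other Sox genes, Sox13 was called higher and Sox5, Sox6, Sox8 and Sox12 lower at all 3 stages. All 7 of the SoxF list genes other than Vcam1 were higher in endothelium at all 3 stages, and Vcam1 was called lower at each. Cdh5 is itself an endothelial gene, and Cldn5 was used above to check these gates. The gates thus partly fix the direction of this list, and its values are given as a description. Sox4 differed by 0.16 ± 0.06 (adjusted p = 0.032) at E12.5 and by -0.13 ± 0.05 (adjusted p = 0.032) at E14.5. The E12.5 call was lost without E12.5 replicate 2, E14.5 replicate 2 or any 1 library of E10.5 or E16.5, and the E14.5 call without E14.5 replicate 1 or E10.5 replicate 2. The E12.5 call was also lost with RLE size factors (0.14, adjusted p = 0.0544), library totals (0.06, adjusted p = 0.474), no filter on low counts, barcodes of more than 1 gate kept, a floor of 5000 UMIs or ceilings on the mitochondrial share, and the E14.5 call with the top 5% of UMIs left out (-0.07, adjusted p = 0.33). With doubled gate thresholds the E14.5 value turned to 0.02, adjusted p = 0.795. At E16.5 it was -0.11 ± 0.06 (adjusted p = 0.0774). That difference was called with the library as a replicate block (-0.11, adjusted p = 0.0231), DESeq2, no filter on low counts, a floor of 5000 UMIs (-0.20, adjusted p = 0.00196), ceilings on the mitochondrial share (-0.19, adjusted p = 0.00771) or the top 5% of UMIs left out. It was also called without E16.5 replicate 2 (-0.25, adjusted p = 0.00606), E12.5 replicate 2 (-0.22, adjusted p = 0.000418), E14.5 replicate 2 (-0.22, adjusted p = 0.00155), E10.5 replicate 1 (-0.21, adjusted p = 0.00582) or E12.5 replicate 1.

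Sox9, which drives cartilage and valve matrix genes, marked the Col1a1 gate of the heart. It stood at 217 and 246 at E12.5, then 245 and 245 at E14.5 and lastly 167 and 172 by E16.5. In the Tnnt2 gate it stood at 7.31 and 5.54, 3.63 and 3.54 and 0.933 and 0.759. The gates differed by 4.92 ± 0.12, 5.79 ± 0.13 and 7.32 ± 0.15, with adjusted p = 3.16e-32 at E16.5. The interaction was 2.40 ± 0.22 (adjusted p = 1.61e-11), and Sox9 changed from E12.5 to E16.5 by -0.30 ± 0.10 (adjusted p = 0.0226) in the Col1a1 gate and by -2.69 ± 0.18 (adjusted p = 2.32e-15) in the Tnnt2 gate. Erythroid barcodes, which should lack Sox9, held it at 3.11 and 4.54 at E12.5, 1.60 and 10.2 in the E14.5 libraries and 0.389 and 0.770 at E16.5, so the levels of the Tnnt2 gate lay near those of erythroid barcodes and both were lower at E16.5 than at E12.5. At E12.5 the 367 and 345 UMIs of the SoxE genes in the Tnnt2 gate lay in 111 and 135 of its 2615 and 3512 barcodes. At E16.5 64 and 37 UMIs lay in 31 and 20 barcodes of 3961 and 3693. The part of these few barcodes and of the erythroid background in the Tnnt2-gate fall and in the interaction was not tested. The fall in the Col1a1 gate was not called without E12.5 replicate 2 (-0.21, adjusted p = 0.142) or with doubled gate thresholds (-0.15, adjusted p = 0.395). In the Npr3 gate Sox9 was called lower at E16.5 too, at 0.886 and 0 against 6.68 and 7.43 at E12.5 (-3.98 ± 0.75, adjusted p = 4.79e-05), again near the erythroid levels, in a gate that carried mesenchyme markers at the levels given above. At P3 the Col1a1 gate held 171, with 94.9 in well 1 and 221 in well 2.

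The Col1a1 gate held only a part of the Sox9 molecules of the early heart, 17.2% and 25.5% at E12.5, then 49.5% and 47.6% at E14.5 and lastly 70.3% and 77.9% by E16.5. Barcodes of no gate held 70.9% and 64.3% at E12.5. Their Sox9 level at E12.5 was 179 and 197, so Sox9 was not limited to barcodes rich in Col1a1.

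Within the Col1a1 gate, Sox9 was higher in barcodes with Hapln1, a hyaluronan link protein of the valves, when set against those with Tcf21, a factor of epicardium-derived fibroblasts. Hapln1 is itself on the list of genes known to act with or downstream of Sox9, so the choice of barcodes partly fixes this direction. It stood at 455 and 372 against 101 and 122 at E12.5 (1.70 ± 0.19, adjusted p = 7.9e-09) and at 371 and 517 against 145 and 123 at E14.5 (1.48 ± 0.19, adjusted p = 1.49e-07). At E16.5 it stood at 278 and 319 against 167 and 172 (0.57 ± 0.20, adjusted p = 0.0586), and the libraries still did not overlap. The E16.5 difference was called with the replicate block (0.58, adjusted p = 0.0337), RLE size factors (0.63, adjusted p = 0.034), library totals (0.82, adjusted p = 0.00404), DESeq2, a floor of 5000 UMIs or the top 5% of UMIs left out. At P3 the subsets held 187 and 178.

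**Figure D2:**
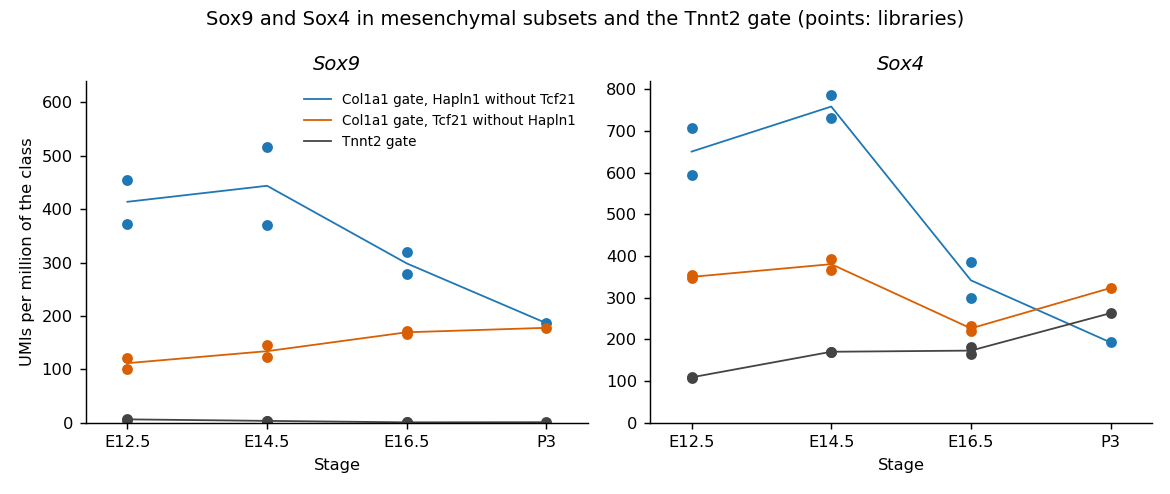
CPM within the class (y axis) by stage (x axis) for Sox9 and Sox4 in Col1a1-gate barcodes with Hapln1 or with Tcf21 and in the Tnnt2 gate, with 1 point per library and lines through stage means. Sox9 of Hapln1 barcodes goes from 455 and 372 at E12.5 to 187 at P3, and Tcf21 barcodes go from 101 and 122 to 178.

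Sox4 was higher in Hapln1 barcodes as well, at 707 and 594 against 354 and 346 at E12.5 (0.72 ± 0.11, adjusted p = 1.4e-05) and 786 and 731 against 367 and 394 at E14.5 (0.79 ± 0.12, adjusted p = 2.7e-06). At E16.5 it stood at 299 and 385 against 220.0 and 233 (0.35 ± 0.13, adjusted p = 0.0941), and was called with RLE size factors (0.41, adjusted p = 0.0396), library totals (0.60, adjusted p = 0.00126), DESeq2 (0.41, adjusted p = 0.0144) or a floor of 5000 UMIs. Sox11 was called at E14.5 (0.61 ± 0.20, adjusted p = 0.0375), and not without E14.5 replicate 1 (0.53, adjusted p = 0.472) or replicate 2 (0.62, adjusted p = 0.154), nor with barcodes of more than 1 gate kept (0.56, adjusted p = 0.0663), the top 5% of UMIs left out (0.59, adjusted p = 0.0607) or ceilings on the mitochondrial share (0.52, adjusted p = 0.0977). Of the members tested, 2 of 8 were called at E12.5 (14% of genes), 3 of 8 at E14.5 (13.3%) and 0 of 8 at E16.5 by edgeR (9.83%), where DESeq2 called 2 and an unadjusted p under 0.05 was reached by 2 members (Sox9 and Sox4).

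Of the cartilage matrix genes listed for Sox9, 3 could be tested in this comparison, and Col9a3, Col9a1 and Col2a1 were higher in Hapln1 barcodes at all 3 stages. Col9a3 stood at 179 and 117 against 29.3 and 22.2 at E12.5 and at 121 and 194 against 0.716 and 4.58 at E16.5. Col9a1 stood in the E16.5 libraries at 131 and 123 against 2.51 and 3.23. The 2 collagen IX chains thus differed by 5.84 ± 0.36 and 5.22 ± 0.29 at E16.5. Sox5, which acts with Sox9 in cartilage, was higher in Hapln1 barcodes by 1.35 ± 0.26, 1.57 ± 0.26 and 2.87 ± 0.29.

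The Col1a1 and Tnnt2 gates differed in 6 of 10 members at E12.5 (63.7% of genes), 4 of 10 at E14.5 (66.1%) and 6 of 10 at E16.5 (71.3%), and the interaction called 4 of 10 (33.1%). Sox4 was higher in the Col1a1 gate at E12.5, at 442 and 489.6 against 108 and 110.1 (1.84 ± 0.07, adjusted p = 2.79e-23). At E16.5 it was 230.0 and 256 against 164 and 182 (0.20 ± 0.07, adjusted p = 0.0133), a call lost without E16.5 replicate 1 (0.13, adjusted p = 0.268), E16.5 replicate 2 (0.14, adjusted p = 0.191), E10.5 replicate 1, E12.5 replicate 2 or E14.5 replicate 2, with no filter on low counts (0.15, adjusted p = 0.125) and without the 5% of barcodes with most UMIs (0.11, adjusted p = 0.197). The interaction of Sox4 was -1.64 ± 0.10 (adjusted p = 4.62e-16). Sox11 turned from 0.41 ± 0.10 (adjusted p = 0.000347) at E12.5 to -0.66 ± 0.11 (adjusted p = 1.83e-06) at E16.5, with an interaction of -1.07 ± 0.15 (adjusted p = 2.36e-07), and at E14.5 it was -0.17 ± 0.10 (adjusted p = 0.126), or -0.17, adjusted p = 0.0434 with the replicate block. Sox2 was called at all 3 stages on 7 and 25 UMIs in the Col1a1 gate at E12.5, 7 and 3 in the E14.5 libraries and 4 and 1 at E16.5. Its E14.5 call was lost with doubled gate thresholds (1.20, adjusted p = 0.651), and its E16.5 call was lost without E16.5 replicate 1 (2.32, adjusted p = 0.316). Sox4 was also higher in the Col1a1 gate at E14.5 (1.34 ± 0.07), and Sox7 at E16.5 (2.42 ± 0.46), a call not made when barcodes of more than 1 gate were kept (0.35, adjusted p = 0.305). Sox10 was called at E12.5 on 2 UMIs of replicate 2, a call lost without that library and with doubled gate thresholds.

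Sox4 and Sox11 moved apart in cardiomyocytes. In the Tnnt2 gate Sox4 rose from 108 and 110.1 at E12.5 to 164 and 182 at E16.5 (0.85 ± 0.07, adjusted p = 2.5e-13), and at P3 it was 263 (207 in well 1 and 408 in well 2). Sox11 fell from 55.6 and 57.7 to 33.5 and 33.2 (-0.58 ± 0.09, adjusted p = 4.61e-07), and at P3 it was 8.43. The median mitochondrial share of the barcodes of this gate moved with the stages, from 5.24% and 5.48% at E12.5 to 10.49% and 10.9% at E16.5 and 22.2% at P3. Both changes were still called in barcodes under ceilings on that share. The ceilings rose with the stage as well, from 7.5% at E12.5 to 15% at E16.5, so they do not level the share between stages. The part of this share was not tested. In the Col1a1 gate both fell (-0.79 ± 0.07, adjusted p = 2.22e-11 for Sox4 and -1.64 ± 0.12, adjusted p = 2.68e-14 for Sox11). In the Npr3 gate Sox11 fell too (-0.57 ± 0.12, adjusted p = 0.000334). Sox4 changed there by -0.19 ± 0.08 (adjusted p = 0.054). That change was called with the replicate block (-0.19, adjusted p = 0.00953), a floor of 5000 UMIs (-0.25, adjusted p = 0.00869) and ceilings on the mitochondrial share (-0.27, adjusted p = 0.00833), and without E16.5 replicate 2 (-0.37, adjusted p = 0.00203), E14.5 replicate 2 (-0.29, adjusted p = 0.00452), E14.5 replicate 1, E10.5 replicate 1 or either E12.5 library. In the Fabp4 gate Sox11 did not fall, at the levels given above. A rise was not called in the main fit, but was with doubled gate thresholds (0.46, adjusted p = 0.0466) and without E16.5 replicate 2 (0.58). Sox4 changed in the Fabp4 gate by -0.29 ± 0.11 (adjusted p = 0.0516). It was called with the replicate block (-0.28, adjusted p = 0.038), RLE size factors (-0.35, adjusted p = 0.0168), DESeq2 (-0.35, adjusted p = 0.0122), library totals, no filter on low counts or a floor of 5000 UMIs, and without E12.5 replicate 1 (-0.42, adjusted p = 0.0437), E14.5 replicate 2, E16.5 replicate 2 or E10.5 replicate 2. Among Sox4-positive barcodes of the Tnnt2 gate, 1012 of 1619 and 1302 of 2093 also held Sox11 at E12.5, while 1223 of 3018 and 887 of 2720 did at E16.5.

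Sox3, a SoxB1 gene best known from the neural tube, was read in heart muscle. In the Tnnt2 gate it stood at 9.66 and 9.89 in the E12.5 libraries, 7.94 and 7.56 in those of E14.5, 2.099 and 2.28 in those of E16.5 and 0.253 in the P3 matrix. The fall from E12.5 to E16.5 was -1.98 ± 0.12 (adjusted p = 5.39e-16), and it was still called under the ceilings on the mitochondrial share. Both the share in this gate and the ceilings rose with the stage, as given above, and the part of the share was not tested. The Tnnt2 gate held 92.7% and 92.8% of the Sox3 molecules of the E12.5 libraries, 485 and 616 UMIs, and 95.4% and 94.1% at E16.5. Other heart classes held little Sox3, such as 0.489 and 0.989 in the Col1a1 gate at E12.5, and the gates differed by -3.85 ± 0.31 (adjusted p = 2.6e-13), -6.50 ± 0.52 (adjusted p = 1.98e-13) and -4.23 ± 0.57 (adjusted p = 3.38e-08). Sox1 was at 0 UMIs in every heart class, and Sox2 stood at 0.0797 and 0.0642 in the Tnnt2 gate at E12.5.

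A Sox3 UMI was found in 11.8% and 10.9% of Tnnt2-gate barcodes at E12.5, at a median of 20088 and 16539 UMIs. Erythroid barcodes, at 30274.5 and 27094 UMIs, held one in 0.312% and 0.224%. In a split chosen after the levels were seen, Tnnt2-gate barcodes with a UMI of Hey2, a factor of compact ventricular muscle, held Sox3 at 13.9 and 13.7 at E12.5 and those without at 5.55 and 5.84. At E14.5 the values were 8.74 and 8.63 and 6.61 and 5.96, and at E16.5 2.24 and 2.07 and 1.83 and 2.57. The subsets overlapped at E16.5 and not before. Median depth at E12.5 was 26646 and 25901.5 UMIs with Hey2 and 12972.5 and 9765 without, and the part of depth was not tested.

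**Figure D3:**
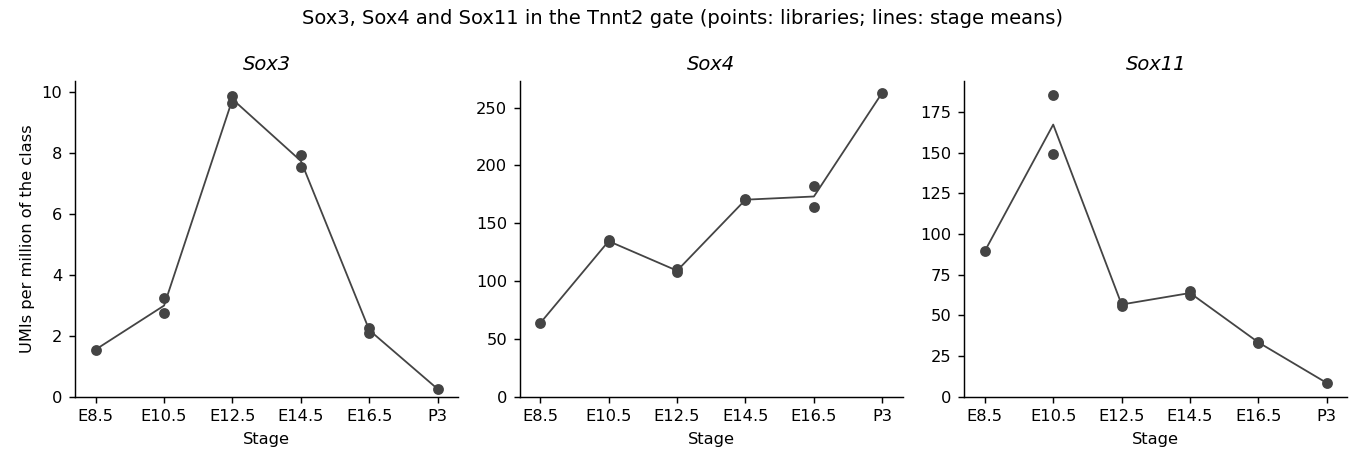
CPM within the Tnnt2 gate (y axis, a separate scale per gene) by stage (x axis) for Sox3, Sox4 and Sox11, with 1 point per library and lines through stage means. E8.5 and E10.5 are embryos and the later stages hearts. Sox3 is highest at E12.5, at 9.66 and 9.89, Sox4 ends at 263 at P3 and Sox11 at 8.43.

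Over time in the hearts, 4 of 10 members were called from E12.5 to E16.5 in the Npr3 gate (34.3% of genes), 2 of 10 in the Fabp4 gate (19.9%), 5 of 10 in the Col1a1 gate (33.2%) and 5 of 10 in the Tnnt2 gate (58.3%). Sox7 was among those of the Col1a1 gate on 2 and 2 UMIs at E12.5 and 8 and 15 at E16.5, and was not called without E12.5 replicate 2 (1.79, adjusted p = 0.182) or E16.5 replicate 2 (1.47, adjusted p = 0.231), nor with doubled gate thresholds (6.60, adjusted p = 0.111). The fall of Sox2 in the Tnnt2 gate rested on 4 and 4 UMIs at E12.5 and 0 and 1 at E16.5 (adjusted p = 0.05), with the replicate block it was -2.14, adjusted p = 0.0703, and it was lost without E12.5 replicate 1, E12.5 replicate 2, E14.5 replicate 1, E14.5 replicate 2 or E16.5 replicate 1. It was also lost with DESeq2, no filter on low counts, doubled gate thresholds, barcodes of more than 1 gate kept, a floor of 5000 UMIs and the top 5% of UMIs left out. In the Col1a1 gate Sox2 fell from 1.71 and 3.53 to 0.447 and 0.167 (-2.90 ± 0.58, adjusted p = 0.000179), a call lost without E12.5 replicate 2 (-2.18, adjusted p = 0.0689) and with doubled gate thresholds (-2.49, adjusted p = 0.205).

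In E10.5 embryos the SoxB1 genes were highest in the progenitor gate, which uses Hes5, a gene of the list that acts with or downstream of SoxB1 factors, so the gate partly fixes these levels. In the Hes5 or Pax6 gate Sox2 stood at 236 and 226, Sox1 at 25.3 and 25.8 and Sox3 at 23.3 and 19.9. In the Elavl3 gate they stood at 96.2 and 84.8, 8.44 and 8.11 and 7.93 and 7.49. All 3 were lower in the Elavl3 gate than in the progenitor gate, with differences of -1.49 ± 0.08 (adjusted p = 1.28e-16) for Sox2, -1.76 ± 0.15 (adjusted p = 3.59e-10) for Sox1 and -1.62 ± 0.13 (adjusted p = 1.3e-12) for Sox3. Sox1 kept its direction but did not pass with DESeq2 (-1.66, adjusted p = 0.871). In the E10.5 libraries 548 and 549 barcodes passed both gates and entered neither class, beside 724 and 705 in the Elavl3 gate. The comparison thus leaves out a large part of the barcodes with Elavl3. At E8.5 the progenitor gate held Sox2 at 116, Sox1 at 16.2 and Sox3 at 16.7. Of barcodes with Sox3 in the E10.5 progenitor gate, 859 of 929 and 783 of 815 also held Sox2, and of those with Sox1, 883 of 939 and 894 of 943 did.

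The SoxC genes ran the other way. Sox11 stood at 1266 and 1224 in the Elavl3 gate and 466 and 457 in the progenitor gate (1.29 ± 0.08, adjusted p = 5.53e-16). Sox4 stood at 554 and 548 and 221 and 215 (1.20 ± 0.07, adjusted p = 2.35e-17). Between these gates 7 of 10 members were called, and 52.6% of all genes. Sox9 was lower in neurons (-0.79 ± 0.12, adjusted p = 4.16e-07) and Sox10 higher (1.56 ± 0.32, adjusted p = 0.000183), and both calls were lost when barcodes of more than 1 gate were kept (-0.08, adjusted p = 0.647 for Sox9, and 0.32, adjusted p = 0.248 for Sox10). Of genes of young neurons listed for SoxC, 5 of 5 tested were higher in the Elavl3 gate, with a median of 5.17 against -0.08 over all genes. Elavl3 is itself a marker of neurons, and Tubb3, Stmn2 and Dcx were used above to check this gate. The gate thus partly fixes this direction, and the values are given as a description. Tubb3, a neuronal tubulin, stood at 900.1 and 866 against 22.4 and 22.0, and Stmn2, a microtubule regulator of neurons, at 1078 and 1065 against 16.7 and 19.5. Of the SoxB1 list, Fabp7, Pou3f2 and Nes were lower in neurons and Lin28a was higher.

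**Figure D4:**
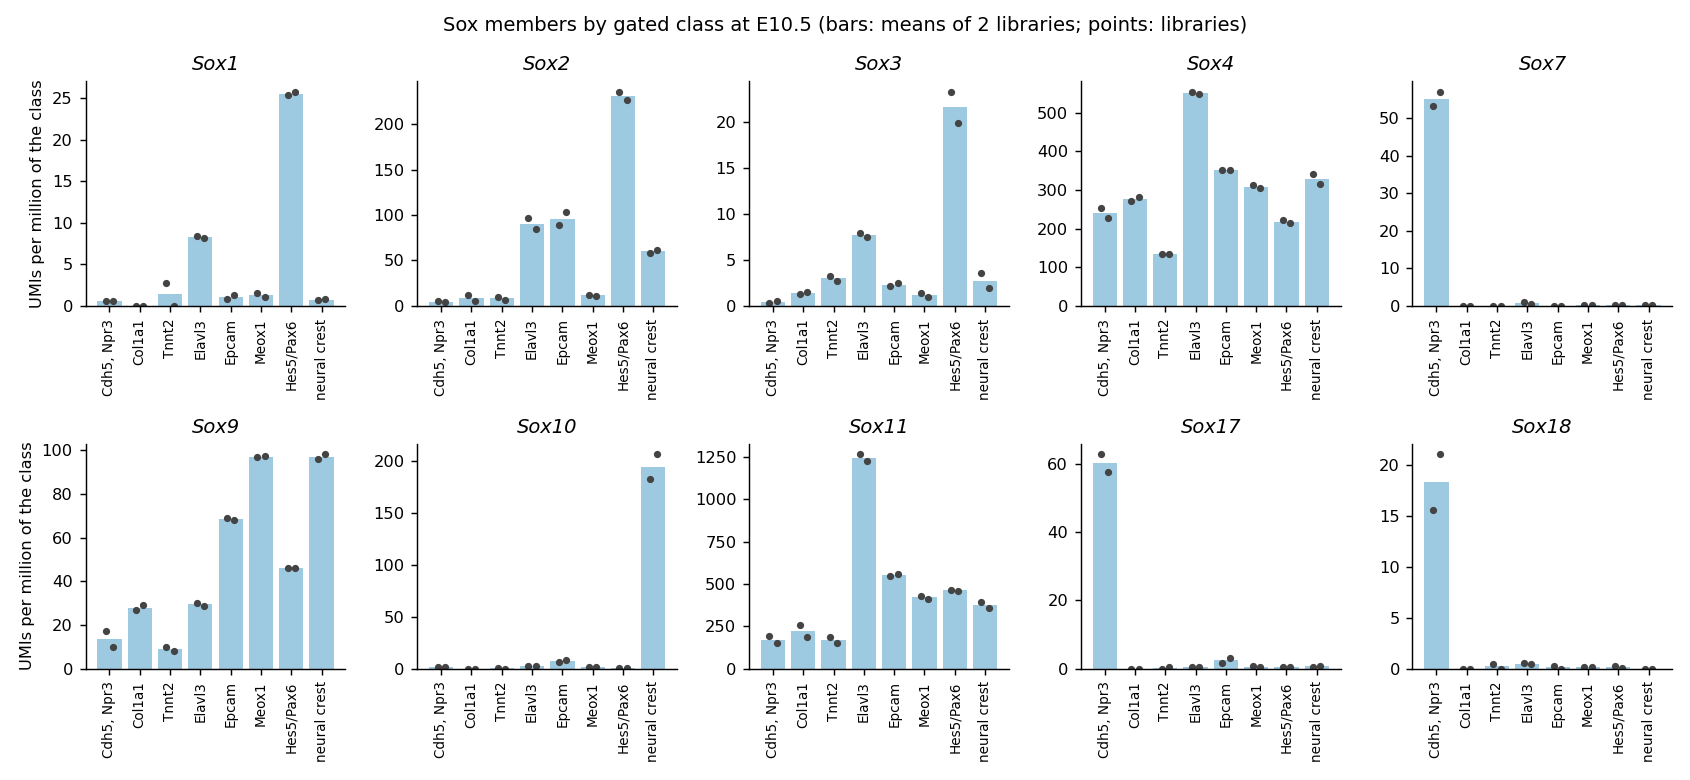
CPM within the class (y axis, a separate scale per gene) for the 10 members in gated classes of the E10.5 embryos (x axis), with bars for the mean of the 2 libraries and points for each library. Sox7, Sox17 and Sox18 stand out in the Npr3 endothelial gate, Sox10 in the neural crest gate, and Sox1, Sox2 and Sox3 in the Hes5 or Pax6 gate.

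Sox10, which directs neural crest derivatives, stood at 182 and 206 in the neural crest gate at E10.5, against 6.50 and 8.001 in the Epcam gate and 0.542 and 0.961 in progenitors. It was higher in the neural crest gate than in the mean of the other classes by 8.20 ± 0.14. The markers that set this gate are themselves on the list of genes known to act with or downstream of Sox10, so the gate partly fixes a high Sox10 level and this difference is given as a description. A Sox10 UMI was found in 88.9% and 92.8% of neural crest barcodes (median 20614 and 20067 UMIs) and in 1.35% and 1.40% of erythroid barcodes (median 23862 and 23172.5 UMIs). This gate held 50.5% and 50.2% of all Sox10 molecules, and barcodes of no gate held 22.4% and 23.0%. At E8.5 the gate held Sox10 at 90.6. Of its barcodes with Sox9, 86 of 96 also held Sox10 at E8.5, and 107 of 121 and 137 of 145 at E10.5.

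Of the genes listed for Sox10, Mbp, Ret and Mitf were higher in the neural crest gate. Mbp, a myelin protein, stood at 11.7 and 11.5 (2.13 ± 0.24). The receptor Ret stood at 7.52 and 10.6 (4.07 ± 0.41), and Mitf, a factor of pigment cells, at 3.32 and 4.25 (1.74 ± 0.37). Sox8, the remaining SoxE gene, was higher there by 3.59 ± 0.24, as were Sox5 and Sox13, while Sox6 and Sox21 were lower.

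Sox9 was spread over more lineages of the E10.5 embryo. It stood at 96.7 and 97.2 in the Meox1 gate and 95.8 and 98.0 in the neural crest gate, whose libraries overlapped. It stood at 69.1 and 68.0 in the Epcam gate, 46.1 and 46.2 in progenitors, 30.2 and 28.7 in neurons and 17.3 and 9.97 in the endothelial gate. Against the mean of the other classes it was higher in the Meox1 gate by 1.71 ± 0.09, in neural crest by 1.62 ± 0.11 and in the Epcam gate by 0.95 ± 0.10. In the Elavl3 gate it was -0.41 ± 0.12 (adjusted p = 0.00416), a call lost without either E10.5 library and with doubled gate thresholds (-0.32, adjusted p = 0.0658), and turned to 0.29, adjusted p = 0.0317 when barcodes of more than 1 gate were kept. At E8.5 Sox9 stood at 118 in neural crest, 50.6 in the Epcam gate and 43.0 in the Meox1 gate.

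In the Epcam gate, Sox2, which also acts in foregut endoderm, stood at 89.0 and 103. Barcodes with Foxa2, an endoderm factor, held Sox2 at 114 and 124 and the others at 82.6 and 97.5 (0.32 ± 0.13, adjusted p = 0.196). Sox17 stood at 2.88 and 12.6 with Foxa2 and 1.19 and 0.855 without (2.76 ± 0.53, adjusted p = 0.000476), a call lost without replicate 2 (1.16, adjusted p = 0.81) and with barcodes of more than 1 gate kept (1.66, adjusted p = 0.0537). At E8.5 Sox17 was 21.7 with Foxa2 and 3.28 without. Sox10 stood at 0.481 and 1.45 with Foxa2 and 7.99 and 9.65 without (-3.19 ± 0.60, adjusted p = 0.000622), a call lost without replicate 1 (-2.77, adjusted p = 0.147), without replicate 2 (-3.94, adjusted p = 0.0794) and with DESeq2 (-3.23, adjusted p = 0.98). These were the 2 of 8 members called, and 5.60% of genes were.

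Against the mean of the other E10.5 classes, the endothelial gate called 8 of 10 members (46.9% of genes), the Col1a1 gate 2 (23.6%), the Tnnt2 gate 4 (43.5%) and the Elavl3 gate 7 (50.9%). The Epcam gate called 6 (35.9%), the Meox1 gate 5 (41.4%), the progenitor gate 6 (57.8%) and the neural crest gate 4 (30.4%). As the mean is of log levels, a class with few or 0 UMIs lowers it. A gene called higher in a gate can thus stand far below its level in another class. The endothelial gate called Sox7, Sox17 and Sox18 higher and Sox2, Sox3, Sox4, Sox9 and Sox11 lower, the Col1a1 gate Sox2 and Sox11 lower and the Tnnt2 gate Sox2, Sox4, Sox9 and Sox11 lower. The Elavl3 gate called Sox1, Sox2, Sox3, Sox4, Sox7 and Sox11 higher and Sox9 lower, and the progenitor gate Sox1, Sox2, Sox3, Sox9 and Sox11 higher and Sox4 lower. The Epcam gate called Sox2, Sox4, Sox9, Sox10, Sox11 and Sox17 higher, the Meox1 gate Sox4, Sox9 and Sox11 higher and Sox2 and Sox3 lower and the neural crest gate Sox2, Sox4, Sox9 and Sox10 higher. Of these calls, Sox17 in the Epcam gate (2.00 ± 0.60, adjusted p = 0.008) and Sox3 in the Meox1 gate (-1.17 ± 0.32, adjusted p = 0.00304) were lost without replicate 2. Sox4 in the Meox1 gate (0.24 ± 0.05, adjusted p = 0.000213) and in the neural crest gate (0.26 ± 0.06, adjusted p = 0.000372) was lost without replicate 1, and Sox4 in the endothelial gate (-0.21 ± 0.06, adjusted p = 0.00389) and Sox7 in the Elavl3 gate (2.42 ± 0.97, adjusted p = 0.0357) were lost without either. The call of Sox1 was lost with DESeq2 in the Elavl3 gate (2.67, adjusted p = 0.693) and in the progenitor gate (4.57, adjusted p = 0.454). Sox7 in the Elavl3 gate was also lost with DESeq2 (1.17, adjusted p = 0.0661), doubled gate thresholds (1.71, adjusted p = 0.286), barcodes of more than 1 gate kept (1.27, adjusted p = 0.32) or the top 5% of UMIs left out (1.61, adjusted p = 0.307). Sox4 was lost in the endothelial gate with that last setting (-0.10, adjusted p = 0.311) and in the progenitor gate with barcodes of more than 1 gate kept (-0.13, adjusted p = 0.0509). Summed, Sox7, Sox17 and Sox18 stood at 1.82 and 3.22 in the Epcam gate, which called Sox17 higher. Their sum was 2.01 and 1.46 in the Elavl3 gate, which called Sox7 higher. In the endothelial gate Sox7 stood at 53.2 and 57.1, Sox17 at 62.9 and 57.6 and Sox18 at 15.6 and 21.1. Of their list, all 7 genes other than Vcam1 were higher there, among them Cldn5 at 159 and 177, and Vcam1 was called lower. As in the hearts, the Cdh5 gate partly fixes the direction of this list. With the replicate block the Col1a1 gate also called Sox10, which had 0 UMIs there (adjusted p = 0.0455).

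Other Sox genes were called beside the members. In the Col1a1 against the Tnnt2 gate the calls were Sox5, Sox6, Sox8, Sox13 and Sox30 higher and Sox12 lower at E12.5, Sox5, Sox6, Sox8, Sox13 and Sox30 higher and Sox12 lower at E14.5, and Sox5, Sox8 and Sox13 higher and Sox6 and Sox12 lower at E16.5. Its interaction with stage called Sox13 higher and Sox6 and Sox12 lower, and that of the Fabp4 and Npr3 gates none of them. From E12.5 to E16.5 the calls were none of them in the Npr3 gate, Sox13 higher in the Fabp4 gate, Sox13 higher and Sox5, Sox6, Sox12 and Sox30 lower in the Col1a1 gate, and Sox6 and Sox12 higher and Sox5 and Sox13 lower in the Tnnt2 gate. Hapln1 against Tcf21 barcodes at E16.5 called Sox5 and Sox6 higher and Sox12 lower. Arterial against venous barcodes called Sox6 and Sox13 higher at E14.5 and Sox6 and Sox13 higher at E16.5. Foxa2 barcodes of the Epcam gate called Sox6 lower, and neurons against progenitors called Sox6, Sox8, Sox13 and Sox21 lower. Against the mean of the other E10.5 classes the calls were Sox13 higher and Sox5, Sox8, Sox12 and Sox21 lower in endothelium, Sox5, Sox6 and Sox12 higher and Sox13 lower in the Col1a1 gate, and Sox12 higher and Sox5 and Sox13 lower in the Tnnt2 gate. They were Sox21 higher and Sox6 and Sox12 lower in the Elavl3 gate, Sox13 and Sox21 higher and Sox8 lower in the Epcam gate, Sox5 and Sox12 higher and Sox21 lower in the Meox1 gate, and Sox8, Sox13 and Sox21 higher and Sox12 lower in the progenitor gate.

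Over the 62 library and class sums, the genes whose log2 level ran most like each member's were found by Pearson's r, given here as a description, since sums of 1 library share its depth and the classes were set by marker genes. Sox17 ran most like Cldn5 (0.97), Pdgfb (0.961) and F2rl3 (0.938), Sox7 like Adgrf5 (0.99), Gimap5 (0.985) and Gimap1 (0.985) and Sox18 like Clec1a (0.964), Robo4 (0.962) and Adgrl4 (0.962). Sox9 ran most like Foxp2 (0.877), Sfrp2 (0.872) and Aldh1a2 (0.87) and Sox10 like Gm12688 (0.9) and Dlx2 (0.899) among others. The SoxC genes ran most like Auts2 (0.959), Ptms (0.957) and Zfp532 (0.954) for Sox4 and Fam60a (0.964), Ube2d1 (0.954) and Zfp553 (0.952) for Sox11. For SoxB1 they were Olig3 (0.958) and Rfx4 (0.957) among others for Sox1, Mycl (0.955), Rab11fip4 (0.935) and Crabp2 (0.927) for Sox2 and Igfbpl1 (0.867), Slitrk5 (0.844) and Ccdc184 (0.836) for Sox3. With Spearman's rho, 6 of the 30 genes found in this way, not all of which are named, were kept.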

How the data were processed

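UMI counts per gene and barcode, deposited by the authors, were used as they stand. The file headers name Cell Ranger 3.1.0 (3.0.0 for P3), and the submitters' processing notes name Cell Ranger 2.1.1, Seurat 3.1.1 and mm10. Labels and methods differ on enzyme and kit chemistry. The 13 sample records gave 10 matrices: E16.5 replicate 1 and P3 each join 2 records, and E8.5 replicate 1 was not analysed here. The labels do not say that the libraries of a stage came from separate animals, so p-values measure the spread between these libraries. That spread was pooled over all stages and classes of a fit. Small p-values thus do not describe the 2 libraries of 1 stage alone.

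Barcodes with at least 2000 UMIs were gated by 1 UMI of Cdh5 with Npr3 or Fabp4 but not both, by 2 UMIs and 5 (Col1a1) or 10 (Tnnt2) per 10000, and in embryos by 2 UMIs of Elavl3, Epcam, Meox1, Hes5 or Pax6. The neural crest gate was used in both tissues. Erythroid barcodes had at least 10% globin UMIs. The Col1a1 gate of embryos excluded barcodes that passed the Meox1 gate. No doublet caller was run, and barcodes of more than 1 gate were left out. Sums with at least 20 barcodes were tested by edgeR 4.0.16 (quasi-likelihood, TMM, filterByExpr), in 1 fit of 40 sums and 14206 genes and, for subsets, 1 of 24 sums and 11262 genes, where Sox1 and Sox3 did not pass the filter. P-values were adjusted by Benjamini-Hochberg over all genes, with a threshold of 0.05. The tests were checked on simulated data in which all sums were drawn independently. That check does not cover the pairing of sums that share a library, given below.

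Members and gene lists were chosen with earlier results of these data known. Members and other Sox genes are named where called, and up to 4 genes per list by level. The interactions and the Hey2 split were added after seeing the data. Some genes that these rules or gates name are not reported here. Class sums of a stage share a library, which pairs them: their deviations correlated at a median of 0.116 (E10.5), 0.418 (E12.5), 0.161 (E14.5) and 0.237 (E16.5). The highest was 0.749 at E12.5. The main fits treated the sums as independent, and only the replicate block took the library into account.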

Additional observations from a re-analysis of the deposited data

Results flagged for a closer look

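The difference between 2 gates changed from E12.5 to E16.5 for 7 pairs of member and contrast, by an interaction test in the edgeR fit that was chosen after the levels were seen. Between the Fabp4 and Npr3 gates it changed by 3.88 ± 0.61 (adjusted p = 3.67e-05) for Sox17, by 1.03 ± 0.22 (adjusted p = 0.00149) for Sox11 and by 4.51 ± 1.19 (adjusted p = 0.0114) for Sox9. The Sox9 call rests on 26 UMIs of E16.5 replicate 1. With the top 5% of UMIs left out, Sox9 differed between these gates at E16.5 by 0.74 (adjusted p = 0.813). The interaction was not called without E16.5 replicate 1. Its value of 7.72 there gives no size of the fold, since the Npr3 gate of E16.5 then had 0 UMIs of Sox9. The interaction of Sox9 was 4.11 and not called without E12.5 replicate 1, and 3.37, adjusted p = 0.0732 with barcodes of more than 1 gate kept. Between the Col1a1 and Tnnt2 gates it changed by 2.40 ± 0.22 (adjusted p = 1.61e-11) for Sox9, -1.64 ± 0.10 (adjusted p = 4.62e-16) for Sox4, -1.07 ± 0.15 (adjusted p = 2.36e-07) for Sox11 and 2.63 ± 0.80 (adjusted p = 0.0095) for Sox7. For Sox9 most of it was the change of the Tnnt2 gate (-2.69 ± 0.18, against -0.30 ± 0.10 in the Col1a1 gate), and erythroid barcodes went from 3.11 and 4.54 CPM to 0.389 and 0.770 CPM over the same stages. The part of this background was not tested. Sox7 was at most 2.50 CPM in those gates, and its value was 1.88, adjusted p = 0.238 without E12.5 replicate 2, 1.81, adjusted p = 0.184 without E16.5 replicate 2, 6.76, adjusted p = 0.0982 with doubled gate thresholds and 1.65, adjusted p = 0.0747 with barcodes of more than 1 gate kept.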

How the results depend on the processing

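Of 533 recomputed counts of members called, 512 stayed within 1.5 times the reported count, and of 2958 recomputed differences of single members 2754 kept direction and side of the threshold, 109 lost it, 91 gained it and 4 changed sign. Some of these fits left out a library of a stage outside the comparison. Such a fit can change a result only through the shared spread, scaling and filter, so these totals overstate how stable the calls are. Between Hapln1 and Tcf21 barcodes at E16.5, where 0 were called, RLE size factors, library totals, DESeq2 and a floor of 5000 UMIs each called 2, and the replicate block, keeping barcodes of more than 1 gate and leaving out the top 5% of UMIs each called 1. With doubled gate thresholds 4 were called from E12.5 to E16.5 in the Fabp4 gate and 2 in the Col1a1 gate. Keeping barcodes of more than 1 gate called 4 in the Col1a1 gate at E10.5. With Foxa2, DESeq2, keeping those barcodes and leaving out the top 5% each called 1. Leaving out 1 library gave 3 to 6 for the Fabp4 against the Npr3 gate at E16.5, 2 to 4 and 2 to 6 for the change over time in the Fabp4 and Col1a1 gates, 0 to 2 and 2 to 4 for arterial against venous barcodes at E14.5 and E16.5, and 0 to 2 for Foxa2. The differences that changed sign were Sox4 in endothelium at E14.5 (0.023, adjusted p = 0.795) and Sox17 between neurons and progenitors (1.26, adjusted p = 0.044) with doubled thresholds, and, with barcodes of more than 1 gate kept, Sox7 over time in the Tnnt2 gate (0.90, adjusted p = 0.000315) and Sox9 in the Elavl3 gate (0.29, adjusted p = 0.0317). The cause was not tested.

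The replicate block changed the call of Sox11 between the Col1a1 and Tnnt2 gates at E14.5 (-0.17, adjusted p = 0.0434) and of the members named beside it in the text, and no other call. Scaling by library totals shifted the median of all genes by up to 0.27 in a comparison. The level of a gene at 0 UMIs is limited by 3 counts of the class total, and such limits cover counting error only. Thinning to 2000 UMIs gives shares of barcodes and not levels, so it has no value here. E8.5 and P3 were in no test, and low counts limit Sox1, Sox2, Sox3 and Sox10 outside the classes named.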
